A study of Rattus norvegicus with 6 samples.

Results

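The microRNAs (miRNAs) described here are those of the rat whose name carries a number of 3000 or more. Numbers are given in order of registration, so these entries were named late. They were chosen by name alone, with any letter and arm suffix, and came to 102 of the 728 mature miRNAs listed. Of the 102, 78 were numbered in the 3000s and 24 from 6000 up, the last being miR-7578. They came from 86 hairpins, 16 of which had both arms listed. Small RNA was sequenced from cardiac fibroblasts of newborn Wistar rats aged 1 to 2 days and from the exosomes of these cells, with 3 libraries a group and no genotype or drug treatment named for either. Fibroblasts were expanded in medium with 10% serum. Medium with 1% exosome-depleted serum was then conditioned for 48 h, a step that the labels list for the fibroblast libraries as well as the exosome libraries. For exosomes, this medium was cleared by centrifugation and filtration and ultracentrifuged, and Trizol RNA was then taken from cells and exosomes. The labels do not say that libraries came from separate cultures or litters, so the p-values reflect how far these libraries vary among themselves, and that variation may be technical only.

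A miRNA is cut from a hairpin in a longer transcript. One or both arms, named -5p and -3p, are loaded into Argonaute and repress messenger RNAs that match the seed, the bases near the 5′ end of the miRNA. Exosomes are small membrane vesicles that carry RNA out of cells. Many late-numbered entries are found only in rodents, lie in introns of host genes, or are read from the strand opposite an older hairpin, and for most no function is established.

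The sequences below are those of the members that differed between exosomes and fibroblasts, printed because the comparison turns on them. They are the mature sequences of RefSeq (build GRCr8), 5′ to 3′, with the seed (bases 2 to 8) in capitals. Of the 102 members 92 had a sequence there. Of the 17 that were higher in exosomes 15 had one, in order of their fold change:
miR-3552: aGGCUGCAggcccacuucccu
miR-3549: aUCUUGCCcgcaaagaccc
miR-3560: cAAAUCCUugcccgggugcauu
miR-3578: gCGAAUAUaacacggucgaucu
miR-3561-5p: aCUGUGUCaauccaggguaga
miR-3065-3p: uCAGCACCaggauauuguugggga
miR-3551-5p: uCUUCACCaugguguuuuugacau
miR-3099: uAGGCUAGaaagagguugggga
miR-3543: cAGGAGUCgagugaugguucaaa
miR-6330: uAUAAUGAccagaucuggguca
miR-3592: aAGUGUUGuccgugaaugauu
miR-6331: cUUUGGUGgcuuaguucuuugugc
miR-3558-5p: cCAUAGAAgucaucccacagugcc
miR-3102: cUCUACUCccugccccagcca
miR-3574: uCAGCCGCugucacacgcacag

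Of the 14 that were lower in exosomes 11 had a sequence, again from the largest change:
miR-6215: uUUAGGGUugcagagccagg
miR-6216: gAUACACAgaggcaggaggagaa
miR-3596d: cUAUACAAucuacuaccuca
miR-3585-5p: uUCACAAGaaggugucuuucau
miR-3546: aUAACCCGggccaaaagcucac
miR-6329: aAUGUGACucagcuaucugaaca
miR-3473: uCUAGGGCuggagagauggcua
miR-3566: cUGCCUAAcaaugaacuacc
miR-3594-3p: cACACCGCcucugcccgcuagu
miR-3068-3p: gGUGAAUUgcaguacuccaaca
miR-3573-3p: uUCCUAACucugcccccucccau

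Raw counts are given below in the order exosome library 1, exosome library 2, an exosome library with a column name that lacks a number (the unnumbered library), then fibroblast libraries 1, 2 and 4. Total miRNA counts were 113129 to 120224 in exosomes and 2439559 to 12508651 in fibroblasts. A miRNA with 0 reads could still make up 0.00265% of the shallowest exosome library, or 0.000123% of the shallowest fibroblast library (3 counts of the total). These limits, and the intervals below, cover counting error only, because amplified reads are not independent molecules. miR-873-3p, which is no member, held 102060, 98791 and 107169 of the exosome counts. Levels are CPM scaled with edgeR's TMM factors (scaled CPM), which were 1.34, 1.13 and 0.432 for the exosome libraries, so that a read in the unnumbered library weighs most. Among markers, 6 of 6 fibroblast and mesenchymal miRNAs were detected in both groups, with summed levels of 183083 to 483162 scaled CPM in fibroblasts and 687 to 19962 in exosomes. The summed cardiomyocyte and muscle markers lay at 89.7 to 125 scaled CPM in fibroblasts and 68.1 to 117 in exosomes, and the endothelial pair at 73.5 to 192 and 718 to 2237. No listed marker was at 0 in all exosome libraries, and the part of other cells in the results below was not tested.

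The late-numbered miRNAs made up a small part of both kinds of library. Their share was 3.10%, 2.73% and 1.68% of the exosome counts (95% Clopper-Pearson intervals 3.00 to 3.20, 2.64 to 2.83 and 1.61 to 1.76) and 1.21%, 2.37% and 1.58% of the fibroblast counts. The groups overlapped, with means of 2.51% ± 0.735 and 1.72% ± 0.589 (SD, n = 3 each). With miR-873-3p left out of the total the exosome shares were 20.5%, 21.6% and 16.9% and the fibroblast shares 1.23%, 2.38% and 1.62%, and the groups did not overlap. Most of the exosome reads belonged to few members. miR-3552, miR-3560 and miR-3568 together held 45.1%, 50.9% and 79.8% of the members' counts in exosomes and 4.31%, 2.96% and 11.2% in fibroblasts.

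Nearly every member was detected in the cells. At least 1 read was found for 102, 102 and 101 members in the fibroblast libraries and for 95, 96 and 80 in the exosome libraries. At the depth of the shallowest library, the fibroblast libraries would be expected to show 92.0, 99.5 and 82.5 members, a mean of 91.3 against 90.0 for the exosome libraries at that same depth. With miR-873-3p left out and every library taken to the smallest total that remained, the means were 54.8 for fibroblasts and 89.0 for exosomes. The median member had 10, 8 and 2.5 reads in exosomes against 292.5, 1419 and 80 in fibroblasts. By mean scaled CPM the members ranked between 40 and 728 of 728 in fibroblasts, with a median rank of 349. The most abundant in fibroblasts were miR-3593-5p, miR-6318, miR-3594-3p, miR-6215 and miR-3560, and in exosomes miR-3552, miR-3560, miR-3568, miR-3593-5p and miR-3557-5p, which held ranks 2, 5, 10, 16 and 46 among all exosome miRNAs.

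**Figure D1:**
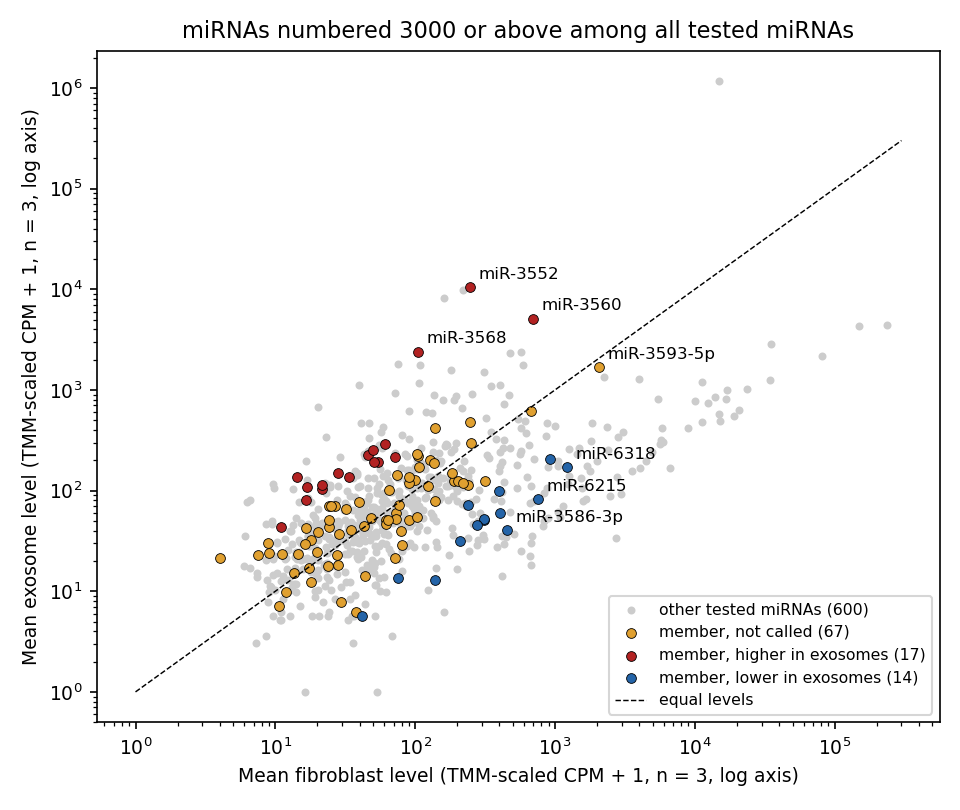
Mean level in fibroblasts (horizontal) and exosomes (vertical) of every tested miRNA, as TMM-scaled CPM + 1 on log axes, n = 3 libraries a group. Members are coloured by their call and other miRNAs are grey; miR-3552, miR-3560 and miR-3568 have the highest exosome levels of the members and lie above the line of equal levels, and most members sit in the middle of the cloud.

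The design asks which of these miRNAs differ in relative abundance between vesicles and parent cells. Of the 102 members 98 passed the count filter, and 17 of them were higher (17.3%, against 11.3% of all 698 tested miRNAs) and 14 lower in exosomes (14.3%, against 18.6%; quasi-likelihood test of edgeR, adjusted over all 698 by Benjamini and Hochberg). The exosome levels lay wholly above the fibroblast levels for 22 tested members and wholly below for 19, where this held for 14.8% and 24.6% of all tested miRNAs. The median log2 fold change was 0.24 for the members and -0.15 for all tested. Among the 233 tested miRNAs most abundant in fibroblasts, 12 of 29 members were lower and 2 higher, against 49.8% and 6.01% of all 233. Among the 233 least abundant, 0 of 37 members were lower and 8 higher, against 0.429% and 14.6% of all 233. By number, 14 of 74 tested members in the 3000s were higher and 10 lower, and from 6000 up 3 of 24 were higher and 4 lower. A member scarce in fibroblasts could pass the filter through its exosome reads, and could hardly be called lower at the exosome depth, so the counts do not support a direction for the members as a list.

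miR-3552, which lies within the span of Htr2c, a serotonin receptor gene on chromosome X, had the largest increase among the members. Exosomes gave 1010, 928 and 920 counts of it, fibroblasts 1095, 4417 and 739. The exosome counts lay within the range of the counts in the far deeper cell libraries, and the scaled levels did not overlap, at 10475 ± 6451 and 246 ± 118 scaled CPM (SD, n = 3 each). miR-3552 was 42.6-fold higher in exosomes (log2 fold change 5.41, SE 1.34, edgeR adjusted p = 0.00055). miR-3568, within the span of the ubiquitin ligase gene Mgrn1 on chromosome 10, had 244, 213 and 206 exosome counts against 663, 2327 and 218. Its levels were 2396 ± 1398 and 105 ± 9.93 scaled CPM (SD, n = 3 each), without overlap, and it was 22.8-fold higher (log2 4.51, SE 0.98, adjusted p = 8.1e-05 by edgeR).

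miR-3560, on the strand opposite miR-501 in the span of the chloride transporter gene Clcn5, had 428, 434 and 473 exosome counts and 1579, 2027 and 3356 fibroblast counts. Fibroblast library 4, the shallowest of the cell libraries, held the most, and the scaled fibroblast levels ran from 81.5 in library 2 to 1736 in library 4. Exosome levels of 2650, 3400 and 9203 scaled CPM lay above all of them. The increase was 7.35-fold (log2 2.88, SE 1.07, edgeR adjusted p = 0.027). It was not called without exosome library 2, the unnumbered library, or fibroblast library 1 or 2, nor with library sizes from the reads outside the listed miRNAs. The adjusted p of edgeR or DESeq2 ran from 1.4e-06 to 0.15 over the alternatives.

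The other 14 members called higher had few exosome reads, with a median of 67 summed over the libraries for all 17. By mean scaled CPM they still ranked from 87 (miR-3099) to 436 (miR-3592) of 728 in exosomes. miR-3549, from the strand opposite miR-193, rose most of these, 10.5-fold (log2 3.39, SE 0.63, adjusted p = 4.1e-06 by edgeR). Reads numbered 23, 21 and 5 in the exosome libraries against 52, 392 and 30, which came to 135 ± 34.3 and 13.2 ± 4.17 scaled CPM (SD, n = 3 each), without overlap. miR-3578, opposite miR-369 in the imprinted Dlk1-Dio3 region, had 16, 16 and 5 counts against 63, 316 and 47 and was 7.0-fold higher (log2 2.81, SE 0.64, adjusted p = 0.00016). miR-3561-5p had 40, 25 and 0 counts against 112, 748 and 65 and was 5.92-fold higher (log2 2.57, SE 0.61, adjusted p = 0.00030). Since it was listed at 0 in the unnumbered library its groups overlapped, and without exosome library 1 it was not called (adjusted p = 0.057 by edgeR, the highest of all its alternatives, which began at 7.0e-07).

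miR-3099 had 68, 48 and 4 exosome counts and 119, 966 and 232 fibroblast counts. Its unnumbered exosome level, 77.8 scaled CPM, fell below the 120 of fibroblast library 4, and the fold of 5.14 (log2 2.36, SE 0.63, edgeR adjusted p = 0.0014) was not called without exosome library 2 (adjusted p = 0.067 by edgeR, the highest of its alternatives, which began at 5.3e-09).

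The remaining 10 members were 3.18- to 5.36-fold higher, and of these the groups overlapped for miR-3574 alone. miR-3065-3p, opposite miR-338 in the span of the kinase gene Aatk, had 21, 18 and 2 exosome counts and 78, 747 and 36 fibroblast counts (log2 2.42, adjusted p = 0.00078 by edgeR). Next to it stood miR-3551-5p, with 17, 10 and 8 counts against 146, 692 and 19 (log2 2.38, adjusted p = 0.0012). miR-6320 had 14, 12 and 3 against 81, 613 and 18 (log2 2.36, adjusted p = 0.0024), but the normalized table keeps 41.4% of its exosome counts. With the reads of that table miR-6320 was not called (adjusted p = 0.17 by edgeR, within a range of 0.00051 to 0.27 over its alternatives), nor was it with total counts, with library sizes from the unlisted reads, or without exosome library 1.

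miR-6330, in the span of Nek11, had even exosome counts of 22, 24 and 22, against 273, 1533 and 79 in fibroblasts (log2 2.29, adjusted p = 0.0018 by edgeR). miR-6331, in a noncoding transcript of the Dlk1-Dio3 region, had 20, 26 and 4 counts against 158, 1364 and 33 (log2 2.09, adjusted p = 0.0032). miR-3592, from the same region, had the fewest exosome reads of the 17, with 5, 10 and 1 counts against 43, 397 and 14 (log2 2.15, adjusted p = 0.032). miR-3558-5p, in the span of Ttc7a, had 41, 23 and 7 against 183, 1196 and 136 (log2 1.98, adjusted p = 0.0061). The smallest increases were those of miR-3102, with 36, 25 and 8 counts against 217, 1130 and 153 (log2 1.87, adjusted p = 0.010), and miR-3574, with 63, 23 and 4 against 524, 1474 and 133 (log2 1.67, adjusted p = 0.024). Neither miR-3102 nor miR-3574 was called without exosome library 1 or without exosome library 2, and the same held for miR-3558-5p and miR-3592. miR-6331 was not called without exosome library 2.

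**Figure D2:**
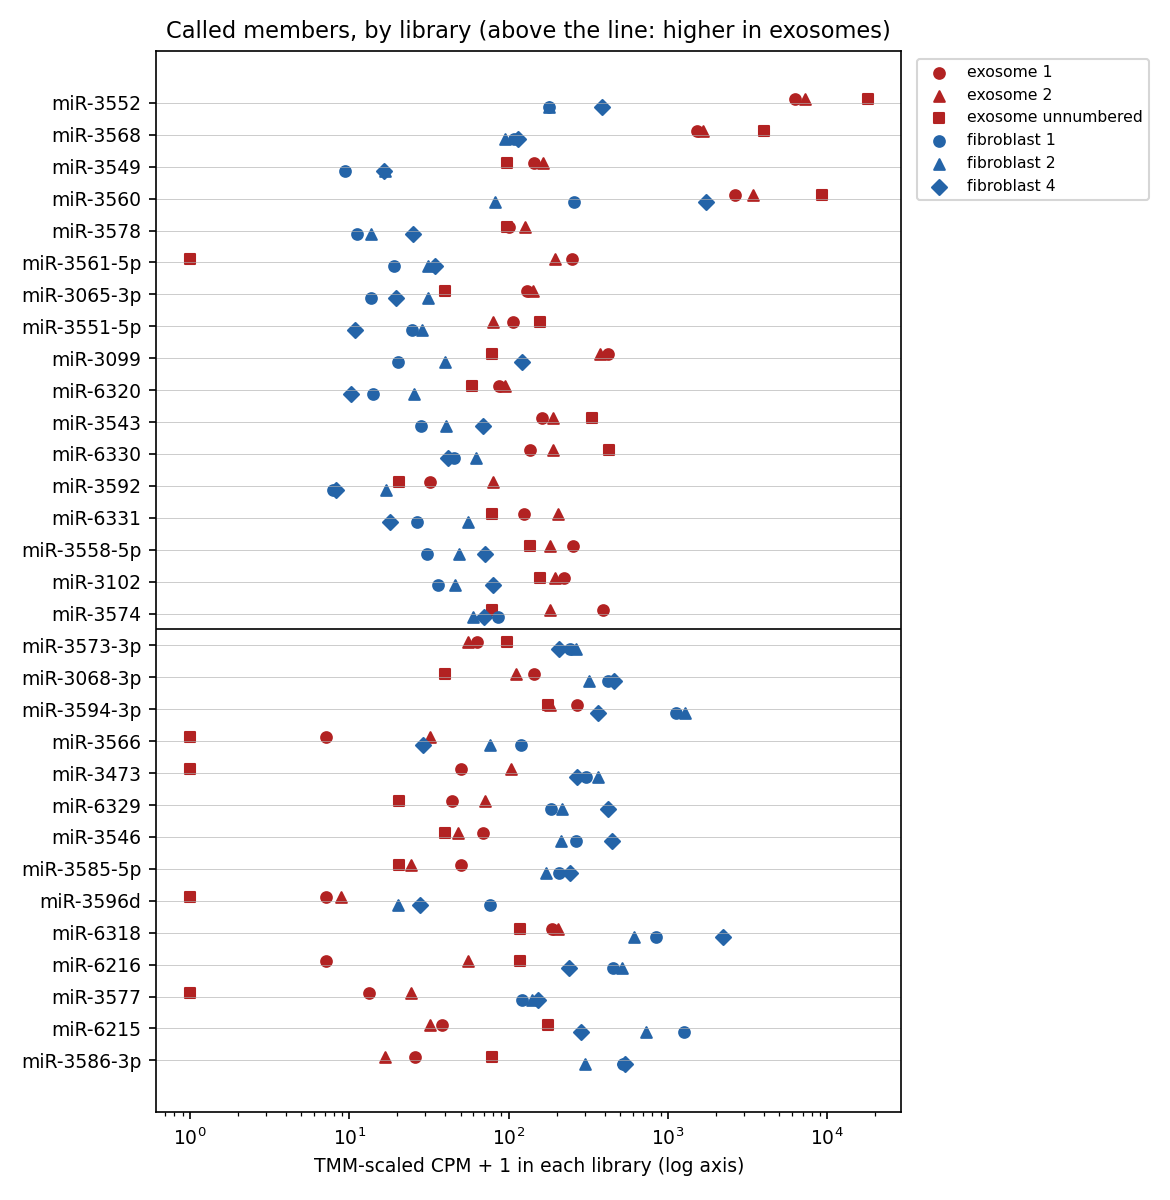
Level in each library (TMM-scaled CPM + 1, log axis) of the 31 members that differed between groups, ordered by fold change, with exosome libraries in red and fibroblast libraries in blue. The groups do not overlap for 27 of the 31; miR-3099, miR-3561-5p, miR-3574 and miR-3566 are the exceptions.

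The 14 members lower in exosomes were the more abundant ones in the cells, with a median fibroblast rank of 128.5 against 418 for the 17 that were higher. miR-3586-3p fell most, 13.8-fold (log2 fold change -3.78, SE 0.80, adjusted p = 5.1e-05 by edgeR). Fibroblasts gave 3224, 7454 and 1032 counts and exosomes 4, 2 and 4, or 452 ± 132 and 39.4 ± 33.6 scaled CPM (SD, n = 3 each), without overlap. In the authors' deposited table it was the 1 member with an adjusted p under 0.05, at 0.017 and a fibroblast over exosome ratio of 11.8. Among all miRNAs 53 were under 0.05 there, and 0 members were called higher in exosomes. The adjusted p of the authors' DESeq comparison was 0.84 for miR-3552, 0.87 for miR-3568 and 0.46 for miR-3549. miR-6215, within the span of Iffo2, had 6, 4 and 9 counts against 7739, 17975 and 550 and was 10.7-fold lower (log2 -3.42, SE 0.82, adjusted p = 0.00034 by edgeR). Its fibroblast levels were 1254, 722 and 285 scaled CPM, all above the 37.2, 31.3 and 175 of exosomes.

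miR-3577 had 2, 3 and 0 exosome counts against 741, 3463 and 292, and was 9.53-fold lower (log2 -3.25, SE 0.80, adjusted p = 0.00047 by edgeR). miR-6216 had 1, 7 and 6 counts against 2770, 12776 and 459 and was 8.04-fold lower (log2 -3.01, SE 0.76, adjusted p = 0.00066). These decreases rest on few exosome reads, with a median sum of 18 over the 14 members and under 10 for 3 of them. miR-6318, the second most abundant member in fibroblasts, had 30, 26 and 6 counts against 5179, 15127 and 4272 and fell 7.10-fold (log2 -2.83, SE 0.83, adjusted p = 0.0039). miR-3594-3p had 43, 23 and 9 exosome counts, of which the normalized table keeps 40.0%, and 6925, 31718 and 706 fibroblast counts. It was 4.40-fold lower (log2 -2.14, SE 0.78, adjusted p = 0.023), yet leaving out any 1 exosome library took the call away, as did a library size without the 5 most abundant miRNAs (adjusted p of 0.00036 to 0.36 over its alternatives).

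The other 8 members lower in exosomes had log2 fold changes of -2.81 to -1.81. miR-3596d, opposite let-7f, differs by 1 or 2 bases from miR-3596a, miR-3596b and miR-3596c, so reads could be split among them, and had 1, 1 and 0 exosome counts and 468, 481 and 52 fibroblast counts (log2 -2.81, SE 1.08, adjusted p = 0.032 by edgeR). With so few exosome reads it was not called with total counts, with a library size that omitted the 5 most abundant miRNAs, with DESeq2, or without exosome library 1 or 2 (adjusted p of 0.0018 to 0.59 over its alternatives). miR-3585-5p had 8, 3 and 1 counts against 1274, 4270 and 468 (log2 -2.62, adjusted p = 0.0018), and miR-6329, in the span of the radixin gene Rdx, 7, 9 and 1 against 1138, 5374 and 817 (log2 -2.51, adjusted p = 0.0022). miR-3473, in the span of Zranb3, had 8, 13 and 0 against 1878, 9033 and 515 (log2 -2.45, adjusted p = 0.0026).

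miR-3546 lies opposite miR-208a, the miRNA of the cardiac myosin gene Myh6, and was found in these fibroblasts at 1632, 5275 and 862 counts and in exosomes at 11, 6 and 2 (log2 -2.52, SE 0.70, adjusted p = 0.0022 by edgeR). The groups overlapped for miR-3566 alone among the lower members, with 1, 4 and 0 counts against 734, 1891 and 54 (log2 -2.36, adjusted p = 0.014). It was not called with DESeq2, with total counts, with a library size that omitted the 5 most abundant miRNAs, or without exosome library 1 (adjusted p of 0.00059 to 0.57 over its alternatives). The smallest decreases were those of miR-3068-3p, in the span of the DNA and RNA demethylase gene Alkbh1, with 23, 14 and 2 counts against 2578, 7897 and 886 (log2 -1.95, adjusted p = 0.019), and miR-3573-3p, in the span of the ephrin gene Efnb1, with 10, 7 and 5 against 1490, 6613 and 399 (log2 -1.81, adjusted p = 0.028). Without exosome library 2 neither was called, and the same held for miR-3068-3p without the unnumbered library and for miR-3573-3p without exosome library 1.

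A further 3 members, listed at 0 in every exosome library, were not tested. For miR-3065-5p, with 106, 621 and 9 fibroblast counts, the fibroblast mean of 15.6 scaled CPM was 1.77 times an exosome floor of 8.81. This floor stands for 3 counts summed over the exosome libraries. Fibroblast library 4, at 4.66 scaled CPM, lay below it. The floors of the single exosome libraries, 18.6 to 58.4 scaled CPM, lay above the fibroblast mean. A lower level in exosomes was therefore not shown library by library. The fibroblast means of miR-3587 and miR-3590-5p were under the summed floor.

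The split between higher and lower members depended on the scaling between libraries. It was 17 and 14 with TMM, 6 and 12 with total counts, 40 and 2 when the library size omitted the 5 most abundant miRNAs, and 6 and 26 when it came from the reads outside the listed miRNAs. All tested miRNAs moved with the scaling too, at 79 higher and 130 lower of 698, 43 and 121 of 698, 185 and 60 of 694, and 31 and 237 of 683. Their median log2 fold change was -0.15, -0.57, 1.34 and -1.14 in the same order. No called member changed the sign of its fold change under any of these 4 scalings, none of which took miR-873-3p as the reference. Called under all 4 scalings were miR-3552, miR-3568, miR-3549, miR-3099 and miR-3561-5p as higher and miR-3586-3p and miR-6215 as lower. Of these miR-3552, miR-3568, miR-3549, miR-3586-3p and miR-6215 were called in the same direction in all 14 alternatives. Without exosome library 1 or 2, 11 and 10 of the 17 higher members and 10 and 10 of the 14 lower members kept their call.

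The members fell apart by how their exosome reads were spread over the libraries. Among 31 members with a mean of 20 or more reads in exosome libraries 1 and 2, the unnumbered library held a median of 0.217 times that mean. The ratio was above 0.5 for 7 of them, against 57 of 136 other miRNAs with as many reads, whose median was 0.387. The 7 were miR-3560 (1.10), miR-6330 (0.957), miR-3552 (0.949), miR-3568 (0.902), miR-3544 (0.742), miR-3543 (0.680) and miR-6334 (0.652). miR-873-3p, the dominant exosome miRNA, had a ratio of 1.07. At the other end, miR-3593-5p went from 355 and 311 reads to 23, miR-3099 from 68 and 48 to 4, and miR-3120 from 46 and 11 to 0. Per 1000 reads of miR-873-3p, miR-3552 stood at 9.90, 9.39 and 8.58 in exosomes and at 13.7, 90.2 and 12.8 in fibroblasts. miR-3560 stood at 4.19, 4.39 and 4.41 in exosomes and 19.7, 41.4 and 58.0 in fibroblasts, and miR-3568 at 2.39, 2.16 and 1.92 against 8.27, 47.5 and 3.76. Relative to miR-873-3p, each of miR-3552, miR-3560 and miR-3568 was thus lower in every exosome library than in every fibroblast library, the reverse of its TMM-scaled change. Near-constant raw counts of these members and of miR-873-3p give the even exosome ratios. The scaled levels of these members are highest in the unnumbered library because its TMM factor is lowest. The cause of the lower counts of other members in that library was not tested.

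**Figure D3:**
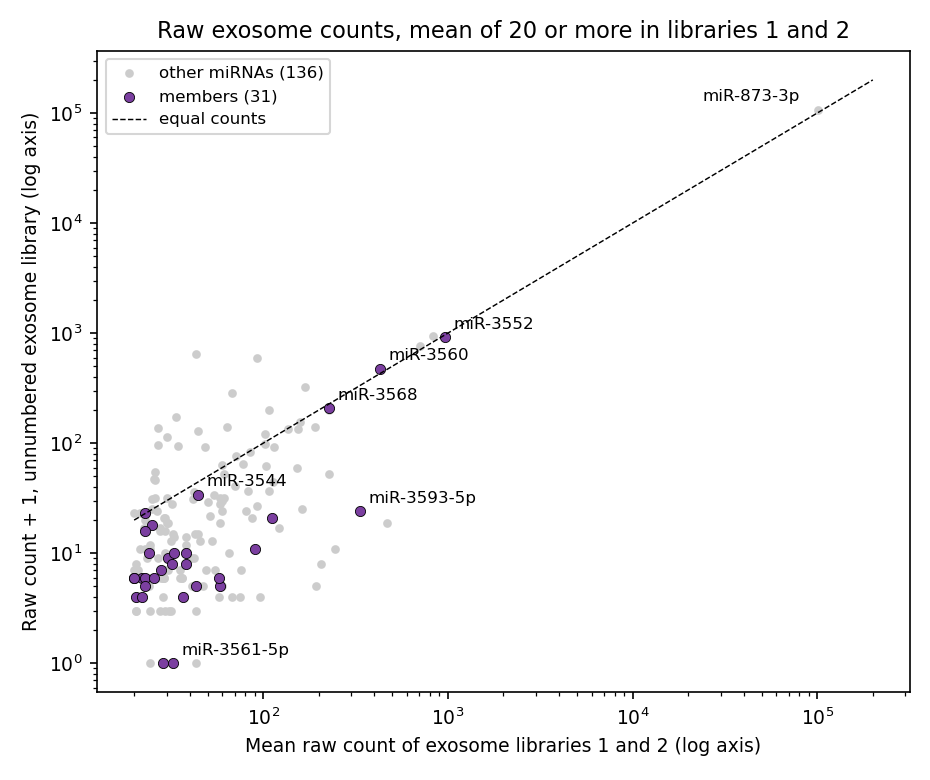
Raw count + 1 in the unnumbered exosome library (vertical) against the mean raw count of exosome libraries 1 and 2 (horizontal), log axes, for miRNAs with a mean of 20 or more; members are purple, others grey. miR-3552, miR-3560, miR-3568 and miR-873-3p lie near the line of equal counts, while miR-3593-5p lies far below it.

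Many members are read from the strand opposite an older miRNA. By the RefSeq hairpins 28 members, from 26 hairpins, overlap another hairpin on the other strand, 7 of them on chromosome 6 in the imprinted Dlk1-Dio3 region. For 26 of the 28 at least 15 unbroken bases of the member are the exact reverse complement of 1 arm of the partner, and 15 members are complementary over their whole length. The pairs in which the member differed between groups are printed here where both sequences were at hand, with the complementary stretch in capitals, each member above its partner arm:
miR-3560: CAAAUCCUUGCCCGGGUGCAUU
miR-501-3p: AAUGCACCCGGGCAAGGAUUUGg
miR-3574: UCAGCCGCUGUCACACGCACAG
miR-210-3p: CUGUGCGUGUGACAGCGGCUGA
miR-3543: cAGGAGUCGAGUGAUGGUUCAAA
miR-434-3p: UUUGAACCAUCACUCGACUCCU
miR-3578: GCGAAUAUAACACGGUCGAUCU
miR-369-5p: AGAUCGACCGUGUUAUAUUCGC
miR-3592: AAGUGUUGUCCGUGAAUGAUU
miR-382-3p: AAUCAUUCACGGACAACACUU
miR-3065-3p: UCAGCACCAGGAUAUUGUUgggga
miR-338-5p: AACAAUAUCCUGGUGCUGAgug
miR-3546: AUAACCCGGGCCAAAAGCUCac
miR-208a-5p: GAGCUUUUGGCCCGGGUUAUac
miR-3596d: CUAUACAAUCUACUACCUCA
let-7f-5p: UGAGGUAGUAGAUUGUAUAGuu

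Of the 28, 24 were tested, with 7 higher (29.2%) and 2 lower (8.33%) in exosomes, where 11.3% and 18.6% of all 698 tested miRNAs were called. The 4 not tested had 0 to 4 exosome reads, so this count does not speak for all 28. Their median fibroblast level was 16.3 scaled CPM against 75.2 for the 74 other members, of which 10 were higher and 12 lower. The share over all 698 is not matched for abundance. Among the 233 tested miRNAs least abundant in fibroblasts, 14.6% were higher and 0.429% lower. Whether the counting used the strand is not given in the sources used here. The members opposite let-7 were scarce beside their partners. Summed over the fibroblast libraries, miR-3596a, miR-3596b, miR-3596c and miR-3596d had 79, 300, 227 and 1001 reads against 271939, 61719, 72598 and 768444 of the let-7a-5p, let-7d-5p, let-7e-5p and let-7f-5p they mirror. That is 0.0291%, 0.486%, 0.313% and 0.130% of the partner's count. The let-7a-5p and let-7f-5p entries carry no copy number, unlike let-7a-2-3p and let-7f-1-3p, so reads of further hairpin copies may be included. miR-3590-5p, opposite miR-130a-3p, came to 0.607%, and miR-3556a, opposite miR-29a-3p of the collagen-repressing miR-29 family, to 1.52%. Over all 26 pairs the median was 70.8%, and in 9 pairs the member had more fibroblast reads than its partner, up to 588% for miR-3544 against miR-337-5p.

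Members and their partners did not always go the same way, although the difference within a pair was not tested. miR-3560 had 1335 exosome reads in all and miR-501-3p 51, at 6962 and 7177 fibroblast reads, and the log2 fold changes were 2.88 (SE 1.07) and -1.67 (SE 0.72, edgeR adjusted p = 0.063). The other arm of that hairpin, miR-501-5p, was higher like miR-3560, with 19, 21 and 22 exosome counts (log2 2.26, SE 0.62, edgeR adjusted p = 0.0020). miR-3574, opposite the hypoxia-induced miR-210, had a log2 fold change of 1.67 (SE 0.61, adjusted p = 0.024) where miR-210-3p had 0.07 (SE 0.62, adjusted p = 0.95). miR-3543, in the span of Rtl1, had 26, 24 and 17 exosome counts and rose 4.92-fold (log2 2.30, SE 0.62), and miR-434-3p, with 23, 19 and 6, had 0.10 (SE 0.61, adjusted p = 0.92). miR-3578 and miR-369-5p were both higher, with 2.81 (SE 0.64) and 2.85 (SE 0.95, adjusted p = 0.012). miR-3546 was lower at -2.52 (SE 0.70), while miR-208a-5p had 0.50 (SE 0.62, adjusted p = 0.60). miR-3120, which mirrors the hairpin of miR-214 in the span of Dnm3, had 46, 11 and 0 exosome and 1503, 3195 and 447 fibroblast counts. It was not called (log2 -0.56, SE 0.62, adjusted p = 0.54), where miR-214-3p was lower (log2 -4.33, SE 0.87, adjusted p = 2.3e-05 by edgeR). Its mature sequence shares at most 5 complementary bases in a row with either arm of miR-214.

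**Figure D4:**
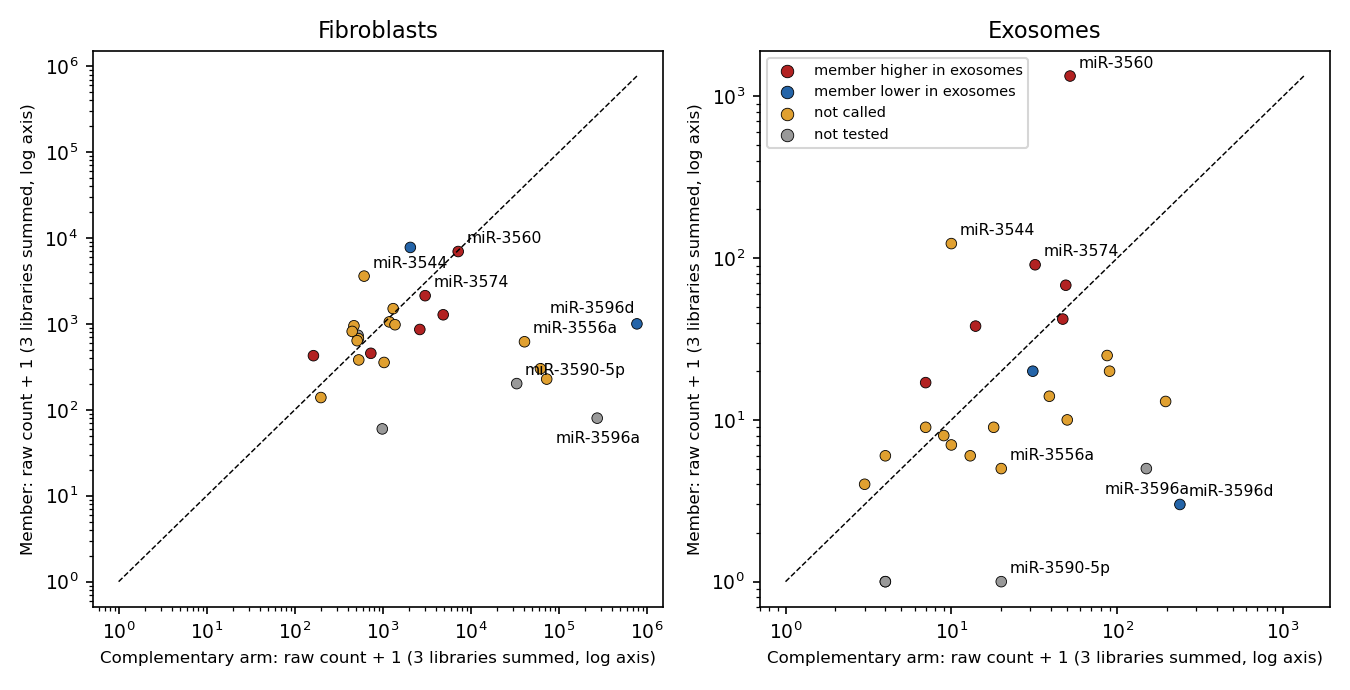
Raw count + 1 of a member (vertical) against that of the complementary arm on the opposite strand (horizontal), summed over 3 libraries, log axes, for 26 pairs in fibroblasts (left) and exosomes (right), coloured by the member's call. In fibroblasts the members opposite let-7, miR-29a-3p and miR-130a-3p lie far below the line of equal counts; in exosomes miR-3560 lies far above it.

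Arm use could be compared in 14 of the 16 hairpins with both arms listed. It needs no scaling between libraries, since both arms come from the same library. The arm ratio differed between exosomes and fibroblasts for 4 of the 14 (28.6%, against 32.7% of all 248 hairpins tested; edgeR's diffSpliceDGE with Benjamini-Hochberg adjustment), each with more of the 5p arm in exosomes. In miR-3586 the 5p arm made up 1.92%, 7.72% and 1.99% of the fibroblast reads and 55.6%, 77.8% and 0% of the exosome reads, and the groups overlapped through the unnumbered library, which held 4 reads of this hairpin, all 3p. The log2 change of the 5p over 3p ratio was 4.80 (adjusted p = 0.00015). In miR-3573 the 5p share was 8.48%, 12% and 8.49% in fibroblasts and 61.5%, 56.3% and 28.6% in exosomes, without overlap (log2 change 3.27, adjusted p = 0.0014).

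In miR-3068 the 5p share was 6.53%, 12.1% and 8.66% in fibroblasts and 30.3%, 53.3% and 50% in exosomes (log2 change 3.00, adjusted p = 0.0022), and in miR-3561 24.9%, 24.6% and 32.7% against 78.4% and 69.4%, with 0 reads of either arm in the unnumbered library (log2 change 2.84, adjusted p = 0.013). In 3 of the 4 hairpins the 3p arm was the main arm in fibroblasts and was itself lower in exosomes: miR-3586-3p, miR-3573-3p and miR-3068-3p. Their 5p arms were not called, with adjusted p = 0.37, 0.061 and 0.22 by edgeR. In miR-3561 it was the 5p arm that was higher. Exosome reads behind these shares were few, at 22 to 87 over both arms and 3 libraries. The call of miR-3561 was lost without exosome library 1 and without each fibroblast library (adjusted p = 0.087, 0.050, 0.12 and 0.054 by diffSpliceDGE, in a range of 0.00076 to 0.12 over its alternatives). That of miR-3068 was lost without exosome library 2 (adjusted p = 0.060, the highest of its alternatives, which began at 0.0012). With any 1 fibroblast library left out the count filter kept 5 of these hairpins, of which 1 was called. Of all hairpins tested in those fits 38.4% to 43.8% were called.

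**Figure D5:**
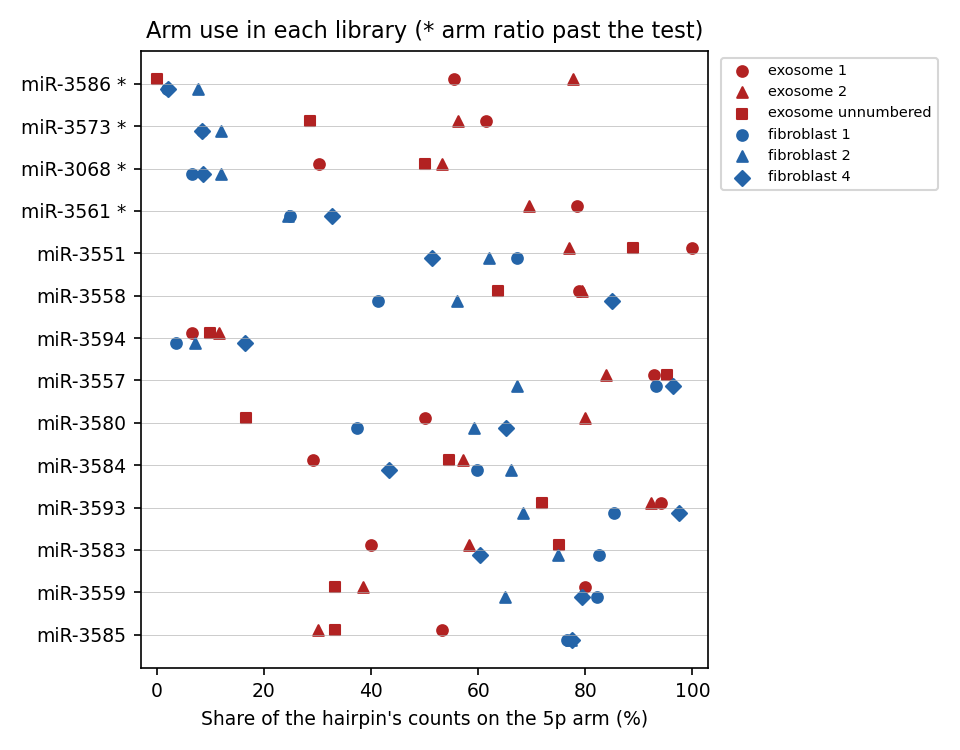
Share of a hairpin's reads on the 5p arm (%) in each library, for the 14 hairpins tested, ordered by the change in arm ratio; red exosomes, blue fibroblasts. The 4 starred hairpins passed the test, and the unnumbered exosome library has no point for miR-3561, which had 0 reads there.

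The 67 tested members that were not called had log2 fold changes from -2.66 to 2.29 and a median of 18 exosome reads over 3 libraries, so that differences of several-fold may have gone undetected. miR-3593-5p, the most abundant of them, had 355, 311 and 23 exosome and 2908, 4827 and 10761 fibroblast counts. Fibroblast library 4 stood apart at 5567 scaled CPM against 471 and 194 in libraries 1 and 2. The groups overlapped (log2 -0.29, SE 0.93, edgeR adjusted p = 0.86), and without fibroblast library 4 the log2 fold change was 2.42 and was called (adjusted p = 0.032). miR-3557-5p, in the span of Ppargc1b, had 170, 52 and 20 counts against 4222, 6556 and 2046 and a log2 fold change of -0.10 (SE 0.75, adjusted p = 0.93). miR-3544, opposite miR-337, had 47, 42 and 33 counts against 886, 2385 and 330; its exosome levels were wholly above those of fibroblasts, but it missed the threshold (log2 1.60, SE 0.66, adjusted p = 0.051).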

How the data were processed

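Small RNA libraries of 3 exosome and 3 fibroblast samples were used. The table of raw counts that the authors deposited, 1 row per mature miRNA, fed all main tests. Their other table is a normalized signal in which each library was divided by 1 size factor, as the deposited values show; these lay within 0.00099 of whole reads, which were 99.3% to 99.8% of the raw reads. The authors' deposited comparison gives a ratio (fold) of fibroblast over exosome means, its log2 value and p-values, per the file headers. Per the submitters' processing notes, CASAVA 1.8.2, cutadapt 1.2.1, DESeq and the build rn5 were used. What aligner, counting rule and miRNA release were applied is not given in the sources used here. RefSeq's build (GRCr8) differs from that of the files, so genome positions are left out.

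Columns were matched to samples by name, and 1 exosome column carried no number. The tests used edgeR 4.0.16 under R 4.3.3 (TMM, filterByExpr with a minimum count of 10 and total of 15, quasi-likelihood test, two-sided, Benjamini-Hochberg over 698 miRNAs, threshold 0.05), and arm ratios with diffSpliceDGE on the same filter. The minimum count acts as a CPM cutoff at the median library size, so a few exosome reads could meet it. miR-3571, for example, was tested with 1, 2 and 2 exosome counts. A standard error (SE) is the absolute log2 fold change over the root of its F value. Alternatives were other scalings, DESeq2 1.42.0, no filter, a mean CPM of 50, the reads behind the normalized table, a block for the replicate number and leaving out each library. For single miRNAs, ranges of adjusted p over the alternatives take in the DESeq2 fit beside those of edgeR. With the block, only libraries 1 and 2 of each group enter the contrast. The code was tested on simulated data. Overlaps of hairpins and host gene spans were read from RefSeq within GRCr8. The row named rest, which names no miRNA, held 63.1% to 84.4% of the reads of each library and stayed out of library sizes except where stated.

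Named were the members past the threshold, the 5 most abundant per group, both arms of hairpins with a changed ratio, those opposite another hairpin (the others of these by counts) and those sharing a seed with a miRNA of 1000 CPM or more. The members, lists and tests were chosen with earlier results of these data known. Among the 92 members with a sequence, 7 matched another listed miRNA with at most 2 mismatches over 18 or more bases: miR-3556a, miR-3556b, miR-3587 and miR-3596a to miR-3596d. Their counts are uncertain, since the counting could split such reads, and the other 10 members could not be checked.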

Additional observations from a re-analysis of the deposited data

How the results depend on the processing

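The 17 members higher and 14 lower in exosomes became 6 and 12 with total counts, 40 and 2 when the 5 most abundant miRNAs did not count toward library size, and 6 and 26 when only reads outside the listed miRNAs did, a setting chosen after seeing the data. Over all tested miRNAs the same 4 settings gave 79 and 130, 43 and 121, 185 and 60, and 31 and 237. DESeq2, no filter, a mean CPM of 50 or more and the reads behind the normalized table gave 15 to 21 higher and 12 to 17 lower. Over all tested miRNAs they gave 68 to 93 higher and 123 to 148 lower. With each library left out in turn, 10 to 20 members were higher (11 without exosome library 1 and 10 without exosome library 2) and 10 to 13 lower. Over all tested miRNAs these fits gave 46 to 78 higher and 86 to 139 lower. Without 1 fibroblast library only 54 to 59 members, among 359 to 414 miRNAs, were tested, so those counts have a smaller base. Hairpins with a changed arm ratio, 4 with all libraries, were 1 to 5 with a library left out. Over all hairpins tested these fits called 35 to 90. miR-3065, not tested in the main fit, was among those called when an exosome library was left out. Unlike the 4 hairpins called with all libraries, it had less of the 5p arm in exosomes. Its 5p arm had 0 reads in every exosome library and its 3p arm 21, 18 and 2, so the size of that change rests on the 0 reads. Each fit without a fibroblast library called 1, where 5 member hairpins passed the filter.

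The labels give groups the same replicate numbers, 1 and 2, but do not say that a number marks a shared culture. Deviations from the group means correlated at -0.10 between the libraries numbered 1 and at 0.17 between those numbered 2, so the numbers were not taken as pairs. With the replicate block 25 members were higher, 16 lower and 5 hairpins changed, of 96, 138 and 90 over all tested. This fit is no paired check of all libraries. A library whose number has no partner in the other group drops out of the contrast, which then rests on the libraries numbered 1 and 2.

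miR-3593-5p turned from -0.29 to a called increase of 1.88 without the 5 most abundant miRNAs in the library size. The called increase was 2.94 with the replicate block and 2.42 without fibroblast library 4 (-0.98 to 2.42 over the left-out libraries). These fits are not independent, since the block also takes fibroblast library 4 out of the contrast. miR-3557-5p turned from -0.10 to a called increase of 1.77 without the 5 most abundant miRNAs in the library size. The cause of these changes was not tested. The exosome share of the members, 2.51%, was 19.7% without miR-873-3p in the total. A mean of 90.3 members was detected per exosome library with 1 read and 73.3 with 3 reads. For fibroblasts the mean of 102 detected members was 91.3 at the depth of the shallowest library and 54.8 (exosomes 89.0) at the shallowest depth without miR-873-3p, a setting chosen after seeing the data.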

Other observations

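The mature sequences of the 92 members in RefSeq had a median GC content of 50% and a length of 18 to 25 bases, and those of 563 other listed miRNAs 47.6% and 17 to 25 bases. The 15 members higher in exosomes with a sequence had a median GC content of 50% and the 11 lower 52.2%.

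By seed the members stood mostly alone. With an older abundant miRNA only miR-3573-5p shared one: its seed GAGGGGC is that of miR-423-5p, which had 50, 33 and 30 exosome counts and 18794, 25197 and 9979 fibroblast counts where miR-3573-5p had 16, 9 and 2 and 138, 900 and 37. miR-3596d, read opposite let-7f, carries the seed UAUACAA of the 3p arms of let-7a-1, let-7b, let-7c-2, let-7f-1 and miR-98, each under 68.0 scaled CPM in fibroblasts, and miR-3065-5p shares CAACAAA with miR-7a-1-3p.

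Of the 102 members 69 lie within the span of a RefSeq gene, 54 of them of a protein-coding one; the table gives no strand for the gene. For 5 members the reads behind the normalized table held under 60% of the raw exosome counts: miR-3595 (16.7%), miR-3589 (17.6%), miR-3556a (25%), miR-3594-3p (40.0%) and miR-6320 (41.4%).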
